A study of Mus musculus with 4 samples.

Results

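HT22, a mouse hippocampal cell line, was set against whole mouse hippocampus, gene by gene, to describe which programmes of the tissue the line keeps, lacks or has gained. The tested genes were all those with at least 50 reads in at least 2 of the 4 libraries of the series. This rule kept 13704 of the 22328 genes listed. Both hippocampus libraries came from F1m offspring of mice. The F1m-CON library came from offspring of dams fed 1.1 g/kg choline chloride, and the F1m-GCS library from offspring of dams fed 5 g/kg from embryonic day 9 until birth. Offspring of both groups went through behaviour tests at 2 months. The labels do not say if a hippocampus library holds RNA of 1 animal or of several. HT22 cells, labelled as hippocampal neuron cells, grew in high-glucose medium with fetal bovine serum and received 5 µM or 70 µM choline chloride for 48 h. RNA was selected by its poly(A) tail and sequenced in paired-end mode in all 4 libraries. HT22 is an immortalised line, so both of its libraries are cultures of cells with a common origin. The choline supply was ignored here, and the 2 libraries of a group differ in it, so the spread within a group holds that difference together with any between animals or cultures. The p-values therefore measure the spread between these libraries only. Cell mixture, age, culture and immortalisation all differ between line and tissue and cannot be told apart. In a bulk tissue sample, fewer cells of a type and less RNA per cell cannot be told apart either.

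The hippocampus is a mixture. Pyramidal neurons of the CA fields and granule neurons of the dentate gyrus release glutamate, interneurons release GABA, and astrocytes, oligodendrocytes, microglia and vessels surround them. Mature neurons have left the cell cycle and carry synaptic proteins, ion channels and neuronal forms of proteins that other cells make from related genes. HT22 is widely used as a neuronal model for oxidative glutamate toxicity, in which cystine uptake fails and glutathione runs out. A dividing line in serum is exposed to mitogens, and attached cells on plastic build focal adhesions and matrix.

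Reads in genes numbered 31175015 and 30265820 in hippocampus and 18305096 and 13192007 in HT22 at 5 and 70 µM. They made up 63.1% to 79.4% of the uniquely mapped reads. CPM below are the reads of a gene per 1000000 gene reads of its library. Paired CPM or read values are given in the order F1m-CON and F1m-GCS for hippocampus, and 5 µM and 70 µM for HT22. The log2 ratio is that of HT22 over hippocampus with the standard error of the fit. A gene was called higher or lower in HT22 when the adjusted p of the edgeR quasi-likelihood test was below 0.05 and the ratio was at least 2-fold. The 2 hippocampus libraries were closer to each other than the 2 HT22 libraries were, with a median absolute log2 difference of 0.114 against 0.202 over genes. The counts held no reads under a mitochondrial chromosome label in any library, which can also mean that no listed gene carried that label. Intervals on ratios of very low counts cover counting error only. Members outside the naming rule, such as Grin1, Mbp and Mki67, were named with their values seen.

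HT22 and hippocampus differed across most of the measured genome. Of the 13704 tested genes, 4729 were lower in HT22 (34.5%) and 4087 were higher (29.8%). Losses went further than gains: 2822 genes (20.6%) were at least 16-fold lower in HT22, and 757 (5.52%) at least 16-fold higher. Another 4880 genes (35.6%) had a ratio within 2-fold, a class of size and not a test that the levels are equal. The genes at least 16-fold lower held 29.2% of gene reads in each hippocampus library and 0.291% and 0.513% in HT22. Those at least 16-fold higher held 12.9% and 12.6% of gene reads in HT22, and 0.270% and 0.272% in hippocampus. The filter sets part of this: 2958 genes passed it through the hippocampus libraries alone and 512 through the HT22 libraries alone. Most such genes differ by that choice, and 2894 of the 2958 were called lower. Since the hippocampus libraries were deeper, 50 reads is a lower CPM there than in HT22. The filter therefore admits more genes low in the tissue than genes low in the line, which tilts these counts towards losses. Where a list below holds genes that passed through 1 group alone, its count of lower or higher members is a description set in part by the filter. The median log2 ratio over all tested genes was 0.02. DESeq2 size factors moved it by -0.15, so a ratio near the 2-fold line depends on the scaling.

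**Figure D1:**
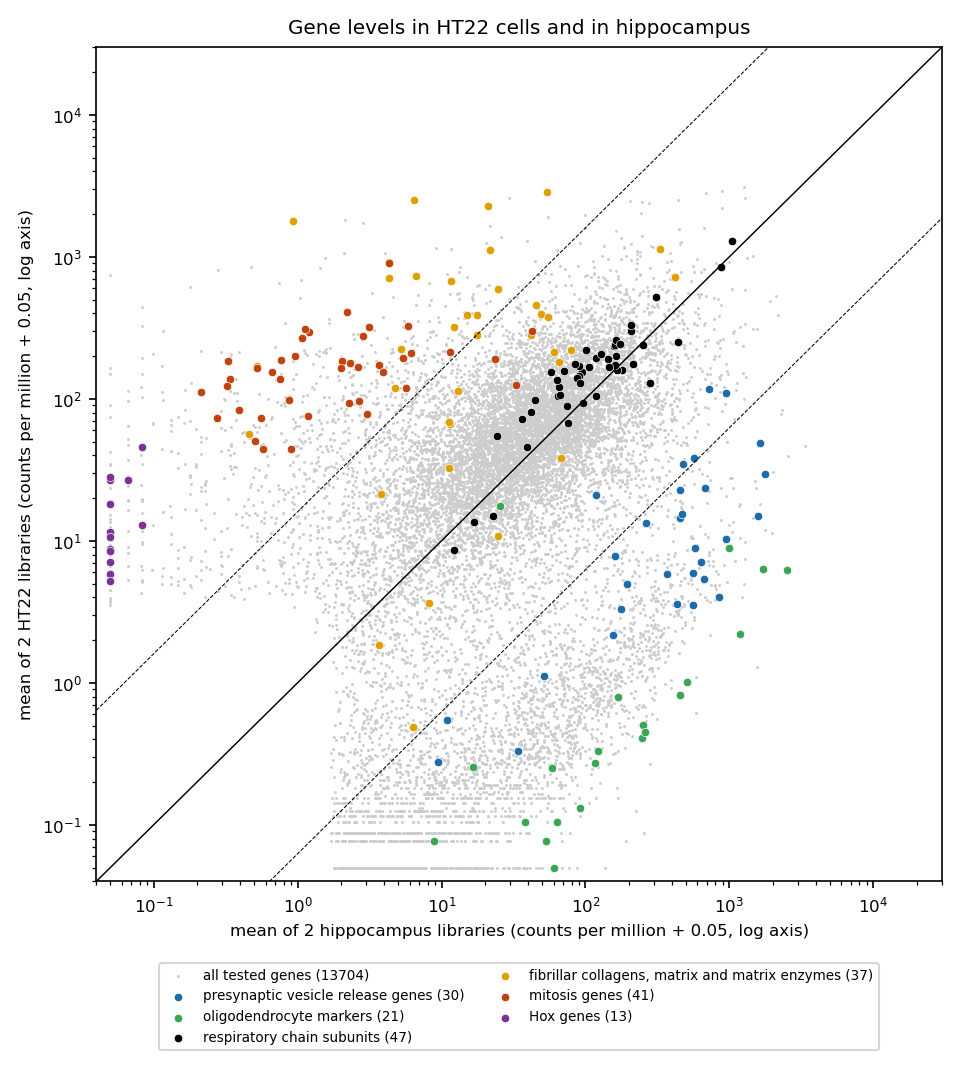
Mean CPM of each tested gene in the 2 hippocampus libraries (x axis) and the 2 HT22 libraries (y axis), on log axes after adding 0.05, with 6 gene lists coloured. The solid line marks equal levels and the dashed lines 16-fold differences: presynaptic and oligodendrocyte genes lie below the diagonal except 1 oligodendrocyte gene near it, respiratory chain genes lie near it, and mitosis and Hox genes lie above it.

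The genes farthest apart were named one by one. Among genes with at least 100 CPM in hippocampus, Hs3st4, a heparan sulfate sulfotransferase, had 4437 and 3958 reads in hippocampus and 0 in both HT22 libraries. Against a floor of 3 reads over the 2 HT22 libraries it was at least 1434-fold lower in HT22. Cabp7, a calcium-binding protein, had 8181 and 7587 reads in hippocampus and 0 and 1 in HT22, a pooled ratio of 8083 (95% counting interval 1451 to 319294). Fibcd1, a marker of CA1 pyramidal cells, had 5748 and 5903 reads against 1 and 0. Prox1, the transcription factor of dentate granule cells, had 5186 and 5160 against 1 and 2. Each of these genes was high in both hippocampus libraries and nearly absent from both cultures. Shisa6, Ttr, Bcas1, Dock10, Cpne6, Gabra5, B3galt5 and Pnmal1 completed the 12 lowest, with log2 ratios from -11.67 to -9.68.

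Rhox5, a homeobox gene of the X chromosome best known from testis and placenta, led the genes higher in HT22. It had 12762 and 10307 reads in HT22 and 0 in both hippocampus libraries, and was at least 15000-fold higher. Prl2c2, a prolactin-family gene known as proliferin, had 2817 and 2312 reads against 0 and was at least 3335-fold higher. Its family holds near-identical copies, so its count is uncertain. Hmga2, an embryonic chromatin protein, had 5561 and 4580 reads in HT22 and 1 and 1 in hippocampus, a pooled ratio of 9891 (95% counting interval 2737 to 81684). The chemokine gene Ccl7 stood at 440.4 and 443 CPM in HT22 and 0.0321 and 0.033 CPM in hippocampus. Ccl2, which attracts monocytes, stood at 646 and 575 CPM against 0.16 and 0.0991 CPM. Il1rl1, the receptor of interleukin 33, was at 904 and 700 CPM in HT22 against 0.16 and 0.297. Defb41, Rpl39l, Siglecg, Aqp5, Nxf3 and Saa3 completed the 12 highest, with log2 ratios from 11.65 to 12.36. Adjusted p was at most 7.84e-07 in these 12 genes.

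**Figure D2:**
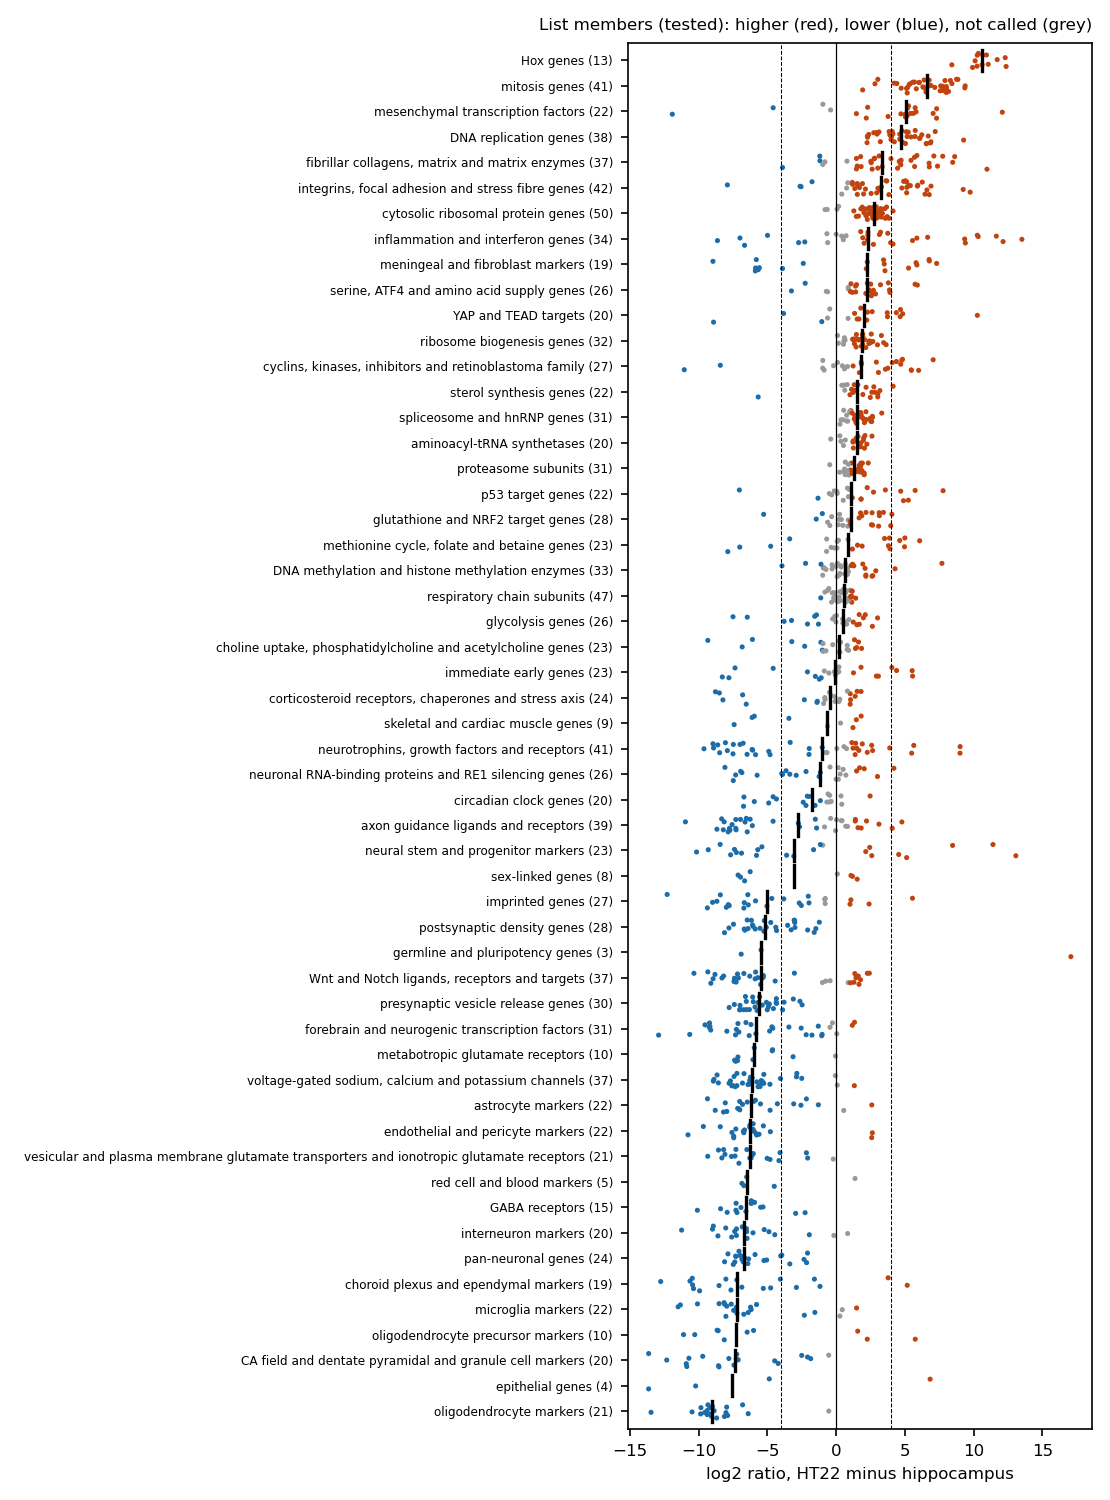
Log2 ratio of HT22 over hippocampus for the tested members of 54 gene lists, ordered by the list's median (black bar), with the number of tested members in brackets. Red points were called higher in HT22, blue lower and grey not called, and dashed lines mark 16-fold. Hox and mitosis lists stand at the top with medians of 10.61 and 6.63 (every Hox gene passed through HT22 alone), and the oligodendrocyte list at the bottom with -9.06.

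Neuronal identity genes were lower in HT22, nearly without exception. All 24 pan-neuronal genes were lower, 19 of them at least 16-fold, with a median log2 ratio of -6.69, where 34.5% of all tested genes were lower and the median over all tested genes was 0.02. Of the 24, 9 passed the read filter through hippocampus alone. Without the 5 µM library the median was -5.99. Rbfox3, which encodes the nuclear antigen NeuN, had 277 and 279.6 CPM in hippocampus and 0.819 and 2.5 CPM in HT22 (log2 ratio -7.48 ± 0.35, adjusted p = 2.06e-06). Both HT22 values were under 1% of the hippocampal mean, and the groups were far apart. Nefl, the light neurofilament chain, had 382 and 367 CPM against 1.04 and 3.79 CPM. The secretory granule gene Scg2 had 249 and 268 CPM against 0.601 and 1.36 CPM.

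The pan-neuronal genes nearest to their tissue level were Eno2, Ncam1, Thy1 and Celf4. Eno2, neuron-specific enolase, was at 861 and 837 CPM in hippocampus and at 221 and 179.7 CPM in HT22, 4.24-fold lower. Thy1, a surface glycoprotein of neurons that fibroblasts also carry, was at 561 and 548 against 116 and 103 CPM (5.06-fold lower, adjusted p = 5.01e-06). Tubb3, the tubulin often used to stain neurons, was at 238 and 233 CPM against 17.3 and 11.1 CPM (16.4-fold lower). All 24 pan-neuronal genes were lower in both cultures than in either hippocampus library. Whether the cells meet the label of neuron cells was not tested by this comparison with whole tissue.

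Markers of the hippocampal cell fields were nearly gone. Of 20 tested markers of CA pyramidal and dentate granule cells, 19 were lower, 16 of them at least 16-fold, and 15 passed the filter through hippocampus alone. Dsp, a desmosome gene that marks granule cells in this tissue, had 2205 and 2006 reads in hippocampus and none in HT22, at least 719.6-fold lower. Tdo2, the granule cell enzyme of tryptophan breakdown, had 323 and 308 reads against none (at least 108-fold lower). The CA1 marker Wfs1 was 5.68-fold lower, at 156 and 149 CPM against 28.2 and 25.5 CPM. The remaining marker was not called.

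Of 20 interneuron markers 18 were lower and 17 at least 16-fold lower, but 15 of the 20 passed the filter through hippocampus alone. Gad1, an enzyme that makes GABA, was at 311 and 286 CPM in hippocampus and 1.2 and 1.97 CPM in HT22. The related enzyme Gad2 was at 194 and 207 CPM against 0.164 and 0.985 CPM. The vesicular GABA transporter Slc32a1 had 2155 and 1993 reads against 1 and 3. Of the interneuron transcription factors, Lhx6 stood at 25.4 and 26.4 CPM in hippocampus and 23.3 and 22.7 CPM in HT22 (log2 ratio -0.17 ± 0.13, adjusted p = 0.26). Dlx2 had 7.41 and 5.88 CPM and 13.4 and 10.2 CPM. It was not called, but passed without the F1m-CON or the 70 µM library (log2 ratio 1.01).

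Forebrain transcription factors were mostly lower. Of 31 tested, 26 were lower and 19 of those at least 16-fold, 2 were higher and 3 were not called, and 17 passed through hippocampus alone. Neurod1, a neuronal differentiation factor, had 863 and 835 reads in hippocampus against 0 and 1 in HT22. Its relative Neurod2 had 6600 and 6351 against 4 and 7. Lhx2 and Bcl11b, which pattern the cortex and mark deep-layer and CA1 neurons, were 153-fold and 557-fold lower. Emx2, which patterns the hippocampal primordium, was at 22.1 and 20.6 CPM against 20.1 and 15.2 CPM and was not called, while its relative Emx1 had 569 and 422 reads against 1 and 2. The groups did not overlap for Emx2, but the difference was only 1.2-fold with an adjusted p of 0.2. Nfib was at 175 and 202 CPM against 180.5 and 209 CPM. Nr2f2 and Sox4 were higher in HT22, 2.52-fold and 2.26-fold, and Sox4 lost its call without the 70 µM library (log2 ratio 0.86).

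The release machinery of the presynapse was lower throughout. All 30 tested genes were lower and 25 at least 16-fold, with a median log2 ratio of -5.62, and 5 of the 30 passed through hippocampus alone. That median moved to -4.90 without the 5 µM library and to -6.50 without the 70 µM library. Snap25, a core protein of vesicle fusion, had 1777 and 1742 CPM in hippocampus and 18.1 and 41.3 CPM in HT22 (59.6-fold lower, adjusted p = 1.35e-05). Syt1, the calcium sensor of release, had 1571 and 1584 against 8.85 and 21.1 CPM. Syn2, which tethers vesicles, was 220.2-fold lower at 850.5 and 848 against 2.68 and 5.23 CPM. In each of these the 70 µM culture was above the 5 µM culture, and both were far under the tissue. Stx1a, a syntaxin of the synaptic membrane, was nearer to the tissue, 5.57-fold lower, at 22 and 20.2 CPM in HT22 against 115 and 119.8 CPM in hippocampus.

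The receiving side was lower as well, to a lesser depth in some scaffolds. All 28 postsynaptic density genes were lower, 18 at least 16-fold, with a median of -5.16, and 6 passed through hippocampus alone. Camk2a, a kinase subunit of plasticity, had 3395 and 3274 CPM in hippocampus and 25.3 and 68.1 CPM in HT22. Its partner Camk2b had 1319 and 1254 CPM against 4.32 and 10.5 CPM. Dlg4, the scaffold PSD-95, was 8.3-fold lower, at 723 and 707 CPM against 80.8 and 91.6 CPM. Camk2g, Nlgn2, Baiap2 and Sipa1l1 lay nearest to the tissue, with log2 ratios of -1.23, -1.48, -1.60 and -2.07.

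Receptors for the fast transmitters were mostly at trace levels. Of 21 glutamate transporters and ionotropic receptors, 20 were lower and 18 at least 16-fold, with 11 of the 21 passing through hippocampus alone. The NMDA receptor subunit Grin1 had 345 and 358 CPM against 1.26 and 3.49 CPM (156-fold lower), and the AMPA receptor subunit Gria2 had 700.1 and 848 against 5.85 and 11.6 (90.1-fold lower). Grik2, a kainate receptor subunit, stood apart at 66.9 and 85 CPM in hippocampus and 61 and 70.3 CPM in HT22 (log2 ratio -0.21 ± 0.15, adjusted p = 0.22). Its groups overlapped. Of 10 metabotropic receptor and Homer genes 9 were lower, 8 of the 10 passed through hippocampus alone, and the exception was the scaffold Homer3, at 46 and 45.8 CPM against 44.1 and 44.6 CPM. All 15 GABA receptor genes were lower, 13 at least 16-fold, and 11 passed through hippocampus alone. Gphn, the anchor of inhibitory receptors that other cells use in cofactor synthesis, was 4.78-fold lower.

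Of 37 voltage-gated channel genes 34 were lower and 31 at least 16-fold, with 21 passing through hippocampus alone. Scn2a1, a sodium channel of axons, had 317 and 382 CPM against 5.57 and 8.26 CPM, and Scn3b was 488-fold lower. Cacna1c, an L-type calcium channel, and Cacnb3, a channel subunit, were not called. Cacna1c was at 77 and 88.1 CPM in hippocampus and 71.8 and 103 CPM in HT22. Cacnb3 had 239 and 241 against 233 and 228 CPM. Kcna4, a potassium channel, was 2.5-fold higher in HT22, at 98.2 and 112 CPM against 42 and 42.1 CPM.

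Rest and Ptbp1, which hold back neuronal genes and neuronal splicing in other cells, were higher in HT22. Rest, the repressor that binds RE1 elements of neuronal genes outside neurons, was at 6.54 and 6.64 CPM in hippocampus and 118 and 124 CPM in HT22 (18.3-fold higher, adjusted p = 5.33e-07). Ptbp1, a splicing repressor replaced by Ptbp2 in neurons, was at 26.8 and 27.2 CPM against 206 and 227 CPM (8.03-fold higher). Ptbp2 was not called, at 130 and 149.9 CPM in hippocampus and 181 and 129 CPM in HT22. The neuronal splicing factor Rbfox1 was 272-fold lower and the RNA stabiliser Elavl3 159-fold lower. Over the 26 tested genes of this list 14 were lower, 5 higher and 7 not called, and 6 passed through hippocampus alone.

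The switch between related genes was read from 36 pairs of a brain-type member and its counterpart, as the brain member's share of their summed CPM per kb of coding length. The brain member's share was lower in both HT22 libraries than in either hippocampus library for all 36 pairs. Its own call was lower in 32 pairs. The counterpart was higher in 15 of those 32, not called in 13 and lower in 4. In 25 pairs the brain member held the majority in both tissue libraries and the minority in both cultures. These members were picked as brain-type genes, so a lower share is what the choice favours.

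Of 3 pairs of chromatin remodelling subunits, the counterpart was higher in 2. Actl6b, the subunit of the neuronal BAF complex, had a share of 89.7% and 90.1% in hippocampus and 0.434% and 1.56% in HT22, with Actl6a, its counterpart in dividing progenitors, 7.35-fold higher. Ss18l1 had a share of 69.5% and 72.8% in hippocampus and 12.3% and 15.6% in HT22 beside Ss18, which was 2.26-fold higher. Dpf1 had 50.4% and 51.3% in hippocampus and 5.36% and 3.61% in HT22 beside Dpf2, and Dpf2 was not called. Ezh1, the Polycomb methyltransferase of resting cells, had a share of 93.6% and 92.8% in hippocampus and 26.8% and 25.7% in HT22 beside Ezh2. Ezh2 was 19.5-fold higher, while Ezh1 had a log2 ratio of -0.98 ± 0.11 and was not called. Ezh1 was called lower with TMM or DESeq2 size factors (-1.07 and -1.13), and without the F1m-GCS or the 5 µM library (-1.02 and -1.06).

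Metabolic isoforms shifted too. Slc2a3, the neuronal glucose transporter, had a share of 69.2% and 70.6% in hippocampus and 0.134% and 0.55% in HT22 beside Slc2a1. Ldhb, the lactate dehydrogenase chain of oxidative tissues, had a share of 49.5% and 49.3% in hippocampus and 0.978% and 1.32% in HT22 beside Ldha. Hk1 still held the majority against Hk2, with 97.4% and 97.5% in hippocampus and 67.1% and 65.2% in HT22. Eno2 held 90.8% and 91.1% in hippocampus and 51% and 40.2% in HT22 of the enolase pair.

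Structural and signalling pairs differed in how complete the exchange was. Nefl against Vim went furthest, with 84.7% and 86.3% in hippocampus and 0.0456% and 0.174% in HT22. Tubb3 had 97.3% and 97.2% in hippocampus and 3.67% and 2.36% in HT22 beside Tubb6. Eef1a2, the elongation factor of neurons and muscle, had 49.1% and 52.5% in hippocampus and 0.173% and 0.6% in HT22 beside Eef1a1. Snap25 had 99.2% and 99.2% in hippocampus and 37.9% and 57% in HT22 beside Snap23, and here the cultures stood apart from each other. Dnm1, the dynamin of synapses, kept the majority with 95% and 94.6% in hippocampus and 58.6% and 58.3% in HT22 beside Dnm2. Nr3c2, the mineralocorticoid receptor, had a share of 70.8% and 69.7% in hippocampus and 0.331% and 0.925% in HT22 beside the glucocorticoid receptor Nr3c1.

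**Figure D3:**
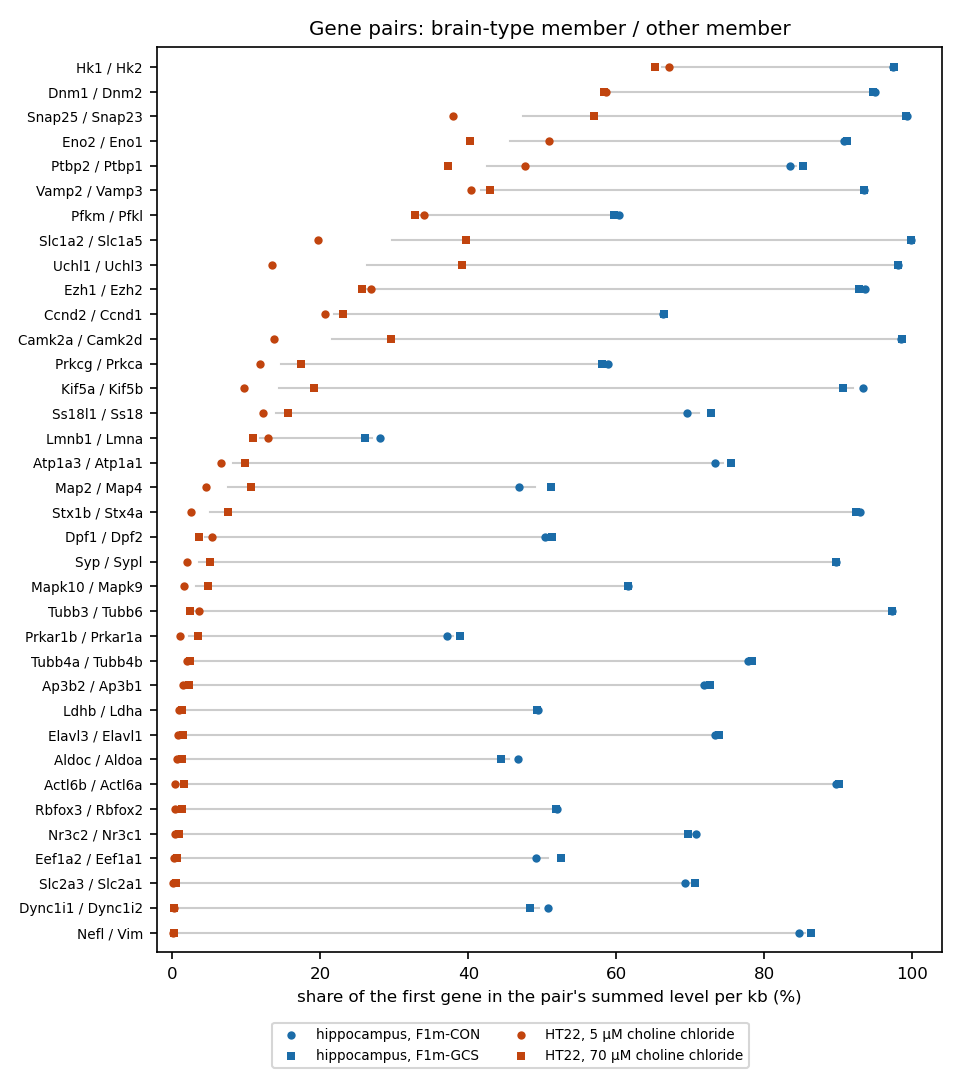
Share (%) of the brain-type member, named first, in the summed CPM per kb of coding length of each of 36 gene pairs, with 1 point per library (blue hippocampus, red HT22, circles F1m-CON and 5 µM, squares F1m-GCS and 70 µM). Red points lie left of blue points in every pair, from Nefl and Vim at the bottom, under 0.2% in HT22, to Hk1 and Hk2 at the top.

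Glial and vascular genes were also lower in HT22. Oligodendrocyte markers had a median log2 ratio of -9.06, the lowest among the 54 lists, with 20 of 21 lower, each of the 20 at least 16-fold. Of the 21, 17 passed the filter through hippocampus alone, so this depth was partly set by it. Mbp, the myelin basic protein, had 2614 and 2403 CPM in hippocampus and 4.15 and 8.19 CPM in HT22 (414-fold lower, adjusted p = 1.48e-06). Fa2h, which makes myelin lipids, had 1932 and 1798 reads against none (at least 637-fold lower). Aspa, the enzyme that cleaves N-acetylaspartate, was the exception, with 25 and 25.6 CPM against 17.3 and 17.6 CPM.

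Astrocyte markers were lower for 20 of 22 genes, 16 at least 16-fold, and 9 passed through hippocampus alone. Gfap, the astrocyte filament, was 656-fold lower at 476 and 456 against 0.437 and 1.06 CPM. The glutamate transporter Slc1a3 was only 4.48-fold lower, at 179 and 149 CPM in HT22 against 753 and 715 CPM. Sox9 was not called, at 34.5 and 30.4 CPM in hippocampus and 44.2 and 50.9 CPM in HT22, and Gli3 was 6.02-fold higher.

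Microglia markers were lower for 19 of 22 genes, but 18 of the 22 passed the filter through hippocampus alone. Tyrobp, the signalling adaptor of microglia, had 523 and 431 reads in hippocampus and none in HT22, and Cx3cr1 had 1796 and 1473 against 5 and 17. Tmem119 went the other way, at 68.9 and 66.3 CPM against 23.9 and 24.4 CPM (2.8-fold higher), and Trem2 was not called at 14.2 and 14.4 against 19.4 and 15.1 CPM. Endothelial and pericyte markers were lower for 20 of 22, and 20 passed the filter through hippocampus alone, so their direction was largely set by it. Cldn5, the tight junction gene of brain endothelium, had 1232 and 1222 reads against 1 and 6. Pdgfrb, the pericyte receptor that fibroblasts share, was 6-fold higher. Of 19 choroid plexus and ependymal markers 17 were lower, with 15 passing through hippocampus alone, and Ttr, the transthyretin of the choroid plexus, was at 1669 and 1455 CPM against 0.273 and 2.2 CPM. The water channel Aqp1 was higher, at 190.2 and 131 CPM against 14.9 and 8.49 CPM, and so was Steap1, at 195 and 180.3 CPM against 6.51 and 3.9 CPM. Of 5 tested red cell genes 4 were lower, and 4 passed through hippocampus alone. Alas2 was not called, though it passed without the 5 µM library (log2 ratio 2.11).

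Precursor and fibroblast genes split. Of 10 oligodendrocyte precursor markers 7 were lower, and Vcan, Pdgfra and Cspg4 were higher. Of the 10, 7 passed the filter through hippocampus alone, which largely set their direction. Vcan, a matrix proteoglycan, reached 1367 and 1404 CPM against 23.4 and 28.1 CPM, and Pdgfra, a growth factor receptor, 395 and 346 against 77.3 and 77.2. The precursor regulator Olig1 was at 179 and 159 CPM against 0.273 and 1.21 CPM. Of 19 meningeal and fibroblast markers 11 were higher and 8 lower, with 5 passing through hippocampus alone and 1 through HT22 alone. Col1a1, Col1a2 and Dcn were 58.5-fold, 108-fold and 11.3-fold higher, while Igf2, Igfbp2 and Lum were 58.1-fold, 497-fold and 14.9-fold lower.

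Stem and progenitor markers split as well. Of 23 tested, 14 were lower and 8 higher, with 11 passing through hippocampus alone and 3 through HT22 alone. Sox2, the neural stem cell factor, had 60.9 and 53.1 CPM in hippocampus and 0.0546 and 0.303 CPM in HT22 (346-fold lower). Nes, the filament of neural progenitors, was 55.5-fold lower, with 1 and 5 reads in HT22, and Pax6 had 399 and 335 reads against 0 and 3. Vim, a filament of progenitors and of mesenchymal cells, was 34.9-fold higher at 1953 and 1863 CPM against 59.3 and 50 CPM. Igf2bp1, an RNA-binding protein of embryonic and tumour cells, had 1641 and 1529 reads in HT22 against 0 and 2, a pooled ratio of 3092 (95% counting interval 855 to 25541).

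Most tissue genes still had reads in the cultures, and 319 of the 13704 tested genes had none in either. Over the 2822 genes at least 16-fold lower, the median level in HT22 was 0.478% of the hippocampal mean at 5 µM and 1.15% at 70 µM. The summed level was 0.997% and 1.76%. Neuronal and glial genes both showed such traces: 0.357% and 0.992% of the tissue level for Grin1, 0.495% and 1.12% for the vesicle protein Syp, 0.0785% and 0.288% for the myelin gene Mobp and 0.0938% and 0.228% for Gfap. The 70 µM culture was the higher in each of these genes. In the other direction, the 757 genes at least 16-fold higher in HT22 had medians of 1.83% and 1.90% of their HT22 level in the hippocampus libraries. Rhox5 was at 0 reads there and Ccl7 at 1 read in each. The source of the traces was not tested.

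Genes of DNA copying and cell division were higher in HT22 throughout. All 41 mitosis genes were higher, 38 of them at least 16-fold, and all 38 DNA replication genes were higher, 25 at least 16-fold. The medians were 6.63 and 4.70, where 29.8% of all tested genes were higher. Of the mitosis genes 20 passed the filter through HT22 alone, and of the replication genes 6. Top2a, the topoisomerase of dividing cells, stood at 1543 and 1917 CPM in HT22 against 2.47 and 3.14 CPM in hippocampus (616-fold, adjusted p = 5.31e-07). Ndc80, a kinetochore protein, was at 114 and 110.5 CPM against 0.225 and 0.0991. Mki67, the proliferation antigen, was 214-fold higher at 728 and 1093 CPM. Both cultures were far above both tissue libraries in each.

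Promoters of 4 genes are shown because cell cycle genes moved together and Rest is a regulator of neuronal ones. They are RefSeq sequences of GRCm38.p6, on the strand of the gene, from 250 bases before to 50 after the start of transcription. Capitals mark the CCAAT box (CCAAT) and the cell cycle homology region (TTTGAA) in Hmmr and Ube2c, the E2F motif (TTTNNCGC) and the CCAAT box in Mcm3, and the 2 parts of the RE1 element (CAGCACC and GGACAGC) in Unc13a, on either strand. They were taken from the mitosis, replication and presynaptic lists as the genes holding most of those motifs and then the largest ratio. Hmmr codes for a spindle protein, Ube2c for the ubiquitin conjugator of mitotic exit, Mcm3 for a helicase subunit and Unc13a for a vesicle priming factor.
Hmmr, chr11:40733388-40733687, minus strand: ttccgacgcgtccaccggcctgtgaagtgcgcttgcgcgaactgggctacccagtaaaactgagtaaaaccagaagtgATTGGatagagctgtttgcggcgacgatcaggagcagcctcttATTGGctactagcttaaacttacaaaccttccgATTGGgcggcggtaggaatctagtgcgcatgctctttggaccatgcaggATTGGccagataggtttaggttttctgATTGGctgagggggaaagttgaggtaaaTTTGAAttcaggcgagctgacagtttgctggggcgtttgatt
Ube2c, chr2:164769679-164769978, plus strand: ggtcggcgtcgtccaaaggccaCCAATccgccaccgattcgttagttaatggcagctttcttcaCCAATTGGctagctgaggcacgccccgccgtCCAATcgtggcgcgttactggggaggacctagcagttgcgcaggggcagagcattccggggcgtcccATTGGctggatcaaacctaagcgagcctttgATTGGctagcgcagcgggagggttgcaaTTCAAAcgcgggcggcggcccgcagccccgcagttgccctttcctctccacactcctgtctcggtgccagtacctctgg
Mcm3, chr1:20820263-20820562, minus strand: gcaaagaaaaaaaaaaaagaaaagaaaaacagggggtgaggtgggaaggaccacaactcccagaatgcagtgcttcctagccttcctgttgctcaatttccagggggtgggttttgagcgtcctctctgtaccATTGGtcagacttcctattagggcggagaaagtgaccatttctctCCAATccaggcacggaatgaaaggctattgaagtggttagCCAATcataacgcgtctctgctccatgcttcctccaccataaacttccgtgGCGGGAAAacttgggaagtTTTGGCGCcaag
Unc13a, chr8:71671708-71672007, minus strand: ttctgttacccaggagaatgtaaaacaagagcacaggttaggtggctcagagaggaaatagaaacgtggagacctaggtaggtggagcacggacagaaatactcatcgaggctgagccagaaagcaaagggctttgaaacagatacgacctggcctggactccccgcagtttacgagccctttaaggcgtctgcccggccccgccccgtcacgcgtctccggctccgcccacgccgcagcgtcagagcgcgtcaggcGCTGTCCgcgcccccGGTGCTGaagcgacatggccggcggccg

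Hmmr was at 120.5 and 124 CPM in HT22 against 0.353 and 0.198, and Ube2c at 156 and 171 CPM against 0.481 and 0.463. Mcm3 was 96.4-fold higher and Unc13a 30.5-fold lower. Promoters in this table were found for 34 of 41 mitosis genes, and 73.5% held a CCAAT box, 67.6% the cell cycle homology region and 58.8% both. Among the 27025 promoters of the table these shares were 37.9%, 18.1% and 7.12%. Among 10207 promoters matched to tested genes they were 38.9%, 11.1% and 4.75%. The E2F motif was in 40.0% of 30 replication promoters, 8.53% of promoters of tested genes and 5.27% of all. Either RE1 motif was in 10.0% of 20 presynaptic promoters and in 14.6% of those of tested genes, and only a window of 300 bases was searched. A match is a description of letters and shows no binding.

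Cell cycle regulators were mixed. Of 27 tested, 17 were higher, 2 lower and 8 not called, where 29.8% of all tested genes were higher and 34.5% lower. E2f7, a repressor of E2F targets, was 133-fold higher and the inhibitor Cdkn2c 44.3-fold higher. Cdkn1a, the p21 inhibitor, was at 237 and 134 CPM against 7.57 and 6.77 CPM (25.9-fold higher), higher in the 5 µM culture. Trp53 itself was 8.4-fold higher. Cdkn1c had 454 and 328 reads in hippocampus and 1 and 0 in HT22, and Mycn had 339 and 359 against none.

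Matrix and adhesion genes were mostly higher in HT22. Where 29.8% of all tested genes were higher, 31 of 37 tested matrix genes were, 17 at least 16-fold, and 3 were lower. Their summed level was 1519 and 1542 CPM in hippocampus and 21386 and 19484 CPM in HT22. Fn1, fibronectin, was at 2774 and 2897 CPM in HT22 against 50.3 and 58.4 CPM (52.2-fold, adjusted p = 6.37e-07). Lox, which cross-links collagen, was at 2027 and 1518 CPM against 0.577 and 1.19. Thbs1 and Thbs2, matrix glycoproteins, were 215-fold and 393-fold higher. Lama4, a laminin chain of vessels, was 14.9-fold lower.

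Of 42 tested integrin, focal adhesion and stress fibre genes 35 were higher and 4 lower, against 29.8% and 34.5% of all tested genes. S100a4, a calcium-binding protein of motile cells, stood at 1715 and 1894 CPM in HT22 against 2.28 and 1.92. Anxa1 was 603-fold and the fibronectin receptor chain Itga5 109-fold higher. Smooth muscle genes did not follow: Tagln was 5.87-fold lower, Myl9 had 493 and 521 reads against 2 and 0, and Acta2 was not called at 12.6 and 14.7 CPM against 24.9 and 21.3 CPM. Targets of YAP and TEAD, the mechanosensitive regulators, were higher for 14 of 20 and lower for 3. Ankrd1 had 1281 and 837 reads in HT22 against 1 and 2, Cyr61 was 25.2-fold higher, and Tgfb2 was 483-fold lower.

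Transcription factors of mesenchyme were higher in HT22 for 18 of 22 tested genes, 14 at least 16-fold, where 29.8% of all tested genes were higher. Of the 22, 10 passed through HT22 alone and 2 through hippocampus alone. Another 14 of the 36 listed were under the filter, and 12 of the 36 had no read in either culture. The median log2 ratio was 5.10, and 2.22 with no filter beyond 1 read. Twist2 was at 199.9 and 214 CPM against 1.54 and 1.06 CPM (158-fold, adjusted p = 5.31e-07). Prrx1, a factor of limb and cranial mesenchyme, was at 481 and 439 CPM against 8.6 and 7.8, and Snai2 133-fold higher. Shox2, a limb and pacemaker gene, was 157-fold higher. Gata4, known from heart and gonad, had 426 and 308 reads in HT22 and none in hippocampus (at least 477-fold higher). Msx1 went the other way, with 663 and 611 reads in hippocampus and none in HT22. Only 4 of 22 epithelial genes were tested: Dsp, Krt18 and Ocln were lower and Pkp3 was higher. Of these 4, 3 passed through hippocampus alone and 1 through HT22 alone, which set their directions. The epithelial markers Epcam and Cdh1 were not tested. Epcam had no read in HT22, and Cdh1 had 25 and 8.

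Hox genes had reads in HT22 and almost none in hippocampus. These genes specify position along the body axis behind the forebrain, and low paralogue numbers mark anterior levels. Of 38 listed, 13 passed the filter, all through HT22 alone, which set their direction. Their median log2 ratio was 10.61, or 7.88 with each gene without reads in hippocampus set at its lower bound. Their summed level over the 38 was 0.0642 and 0.165 CPM in hippocampus and 238 and 208 CPM in HT22. Hoxd8 was the highest, at 52.4 and 39.4 CPM with 1 read in each hippocampus library. Hoxd9 followed with 29.4 and 27 CPM, Hoxa5 with 30.8 and 23 CPM and Hoxa7 with 27.7 and 25.4 CPM. Hoxd9 and Hoxa5 had no read in hippocampus and were at least 581-fold and at least 564-fold higher. Genes above 1 CPM in both cultures included Hoxa2 to Hoxa7, Hoxb4 to Hoxb6 and Hoxc4 to Hoxc6, with Hoxd3, Hoxd8 and Hoxd9. From Hoxa9, Hoxb8, Hoxc8 and Hoxd10 onwards in each cluster, every listed gene had 0 or 1 read in each culture.

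**Figure D4:**
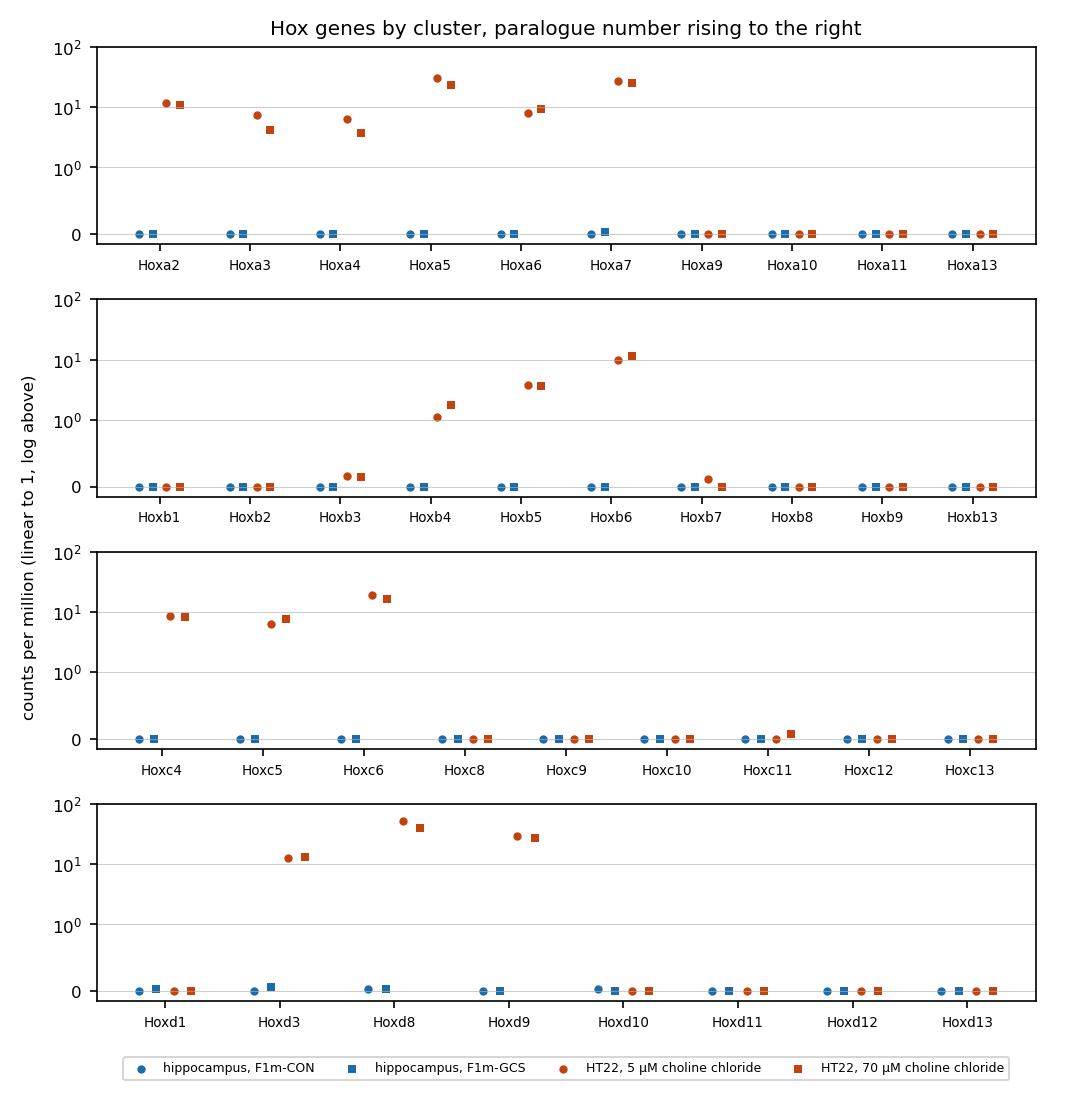
CPM of the Hox genes shown (y axis, linear to 1 and logarithmic above) in the 4 libraries, by cluster, with the paralogue number rising to the right (blue hippocampus, red HT22, circles F1m-CON and 5 µM, squares F1m-GCS and 70 µM). Hippocampus points lie at or near 0 throughout, and HT22 points lie above 1 CPM in both cultures only at Hoxa2 to Hoxa7, Hoxb4 to Hoxb6, Hoxc4 to Hoxc6, and Hoxd3, Hoxd8 and Hoxd9.

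Inflammatory and interferon genes were mixed. Of 34 tested, 22 were higher and 6 lower, with 9 passing through HT22 alone and 5 through hippocampus alone. Over all tested genes 29.8% were higher and 34.5% lower. Cxcl1, a neutrophil chemokine, stood at 230 and 202 CPM in HT22 against 0.0321 and 0.297 CPM. Its relative Cxcl5 stood at 1131 and 843 CPM against 1.64 and 1.39 CPM. Complement C3 was 673-fold higher, at 751 and 613 CPM, and Il6 had 576 and 285 reads against 0 and 1. These named genes were higher in the 5 µM culture than in the 70 µM culture, while Ccl7 of the same list was at similar levels in both. An effect of choline was not tested. H2-K1, which presents antigen, was 128-fold lower, Cxcl12 was 101-fold lower, and Psmb8, an immunoproteasome subunit, had 77 and 54 reads against none.

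The protein-making machinery was higher by modest factors, in lists set beside 29.8% of all tested genes higher. Of 50 ribosomal protein genes 46 were higher and 4 were not called, with a median log2 ratio of 2.72. Their summed level was 2398 and 2157 CPM in hippocampus and 14124 and 15512 CPM in HT22. Rplp0 was 17.6-fold higher and Rpl3 was not called (log2 ratio 0.18 ± 0.13), although copies and pseudogenes make single ribosomal values uncertain. Ribosome biogenesis genes were higher for 26 of 32 with none lower, led by Npm1 and Nop58. Npm1, nucleophosmin, was at 413 and 447 CPM against 34.1 and 35.4. The transfer RNA synthetases (15 of 20), proteasome subunits (22 of 31) and splicing genes (23 of 31) were higher too, with none lower. Their medians were 1.49, 1.32 and 1.49.

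Respiratory chain genes mostly stayed within 2-fold of the tissue. Of 47 respiratory chain subunits 39 were within 2-fold and not called, 7 were higher and 1, Uqcrc2, was lower (2.17-fold). Over all tested genes 35.6% were within 2-fold. Of 26 glycolysis genes 8 were higher, 8 lower and 10 not called, near the shares over all tested genes (29.8% higher and 34.5% lower). Ldha was at 1268 and 1022 CPM against 190.3 and 178, and Hk2 was 8.05-fold higher.

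Over all tested genes 29.8% were higher and 34.5% lower, which is the background for the counts in this paragraph. Sterol synthesis genes were higher for 17 of 22 tested, with Fdps at 143 and 171 CPM against 9.08 and 8.66. Cyp46a1, which exports cholesterol from neurons as a hydroxysterol, was the 1 lower gene, 51-fold. Of 26 amino acid supply genes 20 were higher. Slc1a5, the glutamine carrier, was 53.3-fold and Psat1, of serine synthesis, 4.82-fold higher. Slc7a11, the cystine carrier central to the oxidative toxicity model, was not called, at 34.3 and 44 CPM in hippocampus and 27.5 and 23.3 CPM in HT22. Glutathione and NRF2 target genes were higher for 15 of 28 and lower for 3, with Txn1 and Mgst1 15.7-fold and 16.6-fold higher.

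The series title names Nr3c1, and choline supply is its treatment, so the levels of these genes are given by name. Nr3c1, the glucocorticoid receptor, stood at 92.5 and 111 CPM in hippocampus and 106 and 85.1 CPM in HT22 (log2 ratio -0.09 ± 0.15, adjusted p = 0.6). The groups overlapped. Nr3c2, its mineralocorticoid relative, was at 278 and 316 CPM against 0.437 and 0.985 CPM (439-fold lower, adjusted p = 5.81e-07). The receptor chaperone Ptges3 was 3.51-fold higher. Fkbp5, a target of the receptor, was not called at 92.4 and 80.3 against 108 and 99.4 CPM. Hsd11b1, which regenerates the active steroid, was 2.59-fold lower. Of 24 genes in this list 6 were higher, 8 lower and 10 not called, shares near those over all tested genes (29.8% higher and 34.5% lower).

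Choline handling genes went both ways. Of 23 tested genes, 5 were higher, 7 lower and 11 not called, with a median log2 ratio of 0.19. These shares too lie near the 29.8% and 34.5% over all tested genes. Slc44a1, the main choline carrier of this family, was not called at 138 and 131 CPM in hippocampus and 124 and 102 CPM in HT22. Pcyt1a, the regulated step of phosphatidylcholine synthesis, was at 53.6 and 50 CPM against 142 and 132 CPM (2.64-fold higher, adjusted p = 2.18e-05). Pemt, the alternative route by methylation, was 2.8-fold higher from low reads. Ache, which breaks down acetylcholine, was 68.1-fold lower. Chat, which makes acetylcholine, and the neuronal choline carrier Slc5a7 were not tested and had no read in HT22. In hippocampus Chat had 0 and 1 reads, and Slc5a7 had 21 and 20.

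Of the methyl group pathway, 11 of 23 tested genes were higher and 4 lower, against 29.8% and 34.5% of all tested genes. Among the 23, 3 passed through hippocampus alone. The median log2 ratio was 0.87, and 0.12 with at least 10 reads in 2 libraries. Tyms, which makes thymidylate, was 67.3-fold higher. Cbs, which draws homocysteine into cysteine synthesis, was 236-fold lower, and Chdh, which oxidises choline to betaine, had 287 and 259 reads against 1 and 1. Among 33 methylation enzymes 12 were higher, 3 lower and 18 not called. Over all tested genes 29.8% were higher and 34.5% lower, so the count of higher enzymes was near that share. Dnmt1, which copies DNA methylation at replication, was at 349 and 385 CPM in HT22 against 57.7 and 58.2 CPM. Uhrf1, which recruits it, was at 212 and 228 CPM against 0.994 and 1.12 CPM. Dnmt3a was not called at 109 and 111 against 57.4 and 74.7 CPM. Nsd1 and Tet1 were 15.3-fold and 4.67-fold lower.

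Of 41 growth factor and receptor genes 21 were lower and 15 higher, with 14 passing through hippocampus alone and 3 through HT22 alone. Over all tested genes 34.5% were lower and 29.8% higher. Ntrk2, the receptor of BDNF, was at 775 and 753 CPM against 3.88 and 10.5 CPM (109-fold lower), while Bdnf itself was 2.02-fold lower, at 67.6 and 64.5 against 31.9 and 33.5 CPM. Bdnf lost its call without the F1m-CON or the 5 µM library (log2 ratio -0.98). Fgf7, a factor released by mesenchymal cells, stood at 548 and 479 CPM in HT22 against 1.19 and 0.793 CPM. Gdnf, a survival factor for neurons, stood at 71.9 and 68.1 CPM against 0.225 and 0.033 CPM. Of 37 Wnt and Notch genes 24 were lower and 9 higher, but 23 of the 37 passed the filter through hippocampus alone.

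Position along the chromosomes was examined last, over the 9812 genes with at least 50 reads in all 4 libraries, whose median log2 ratio was 0.48. Chromosome medians ran from 0.15 on chromosome 14 to 0.93 on chromosome 15. In running medians of 11 neighbouring genes, a measure chosen after the data were seen, the quartiles of the 9612 values were 0.11 and 0.87. The highest was 3.96, on the X chromosome from Syap1 to Fancb. The highest away from that end of the X chromosome was 2.70, around Nol12 on chromosome 15, and the lowest -1.46, around Zfp395 on chromosome 14.

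From Rbbp7 to Fancb, at mm10 positions 162760402 to 164997272 of the X chromosome, 14 genes were tested and 13 had at least 50 reads in every library. All 13 were higher in HT22, with log2 ratios from 2.13 for Ap1s2 to 5.77 for Fancb, and 29.8% of all tested genes were higher. Rbbp7, a histone-binding subunit of chromatin complexes, was at 102 and 94.9 CPM in hippocampus and 1663 and 1547 CPM in HT22. Ctps2, which makes CTP, was at 46.1 and 42.9 CPM against 1009 and 866 CPM. Zrsr2, a splicing factor, was at 53.9 and 51.2 against 749 and 782 CPM, and Car5b, a mitochondrial carbonic anhydrase, at 6.67 and 5.58 against 311 and 221 CPM. Both cultures were above both tissue libraries in all 4. Asb11, the remaining gene, was 8.74-fold lower. Genes near the run were high as well. Before it, Sat1, Acot9, Prdx4 and Sh3kbp1 had log2 ratios of 2.79, 3.95, 4.77 and 2.90, and Phka2, the nearest earlier gene with 50 reads in every library, 1.12 (0.97, and not called, with DESeq2 size factors). Gemin8 after it was 6.14-fold higher. Pdha1 before it (log2 ratio 0.03 ± 0.14) and Prps2 after it (0.05 ± 0.11) were not called. These genes were chosen after their values were seen, and DNA copy number was not measured here.

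**Figure D5:**
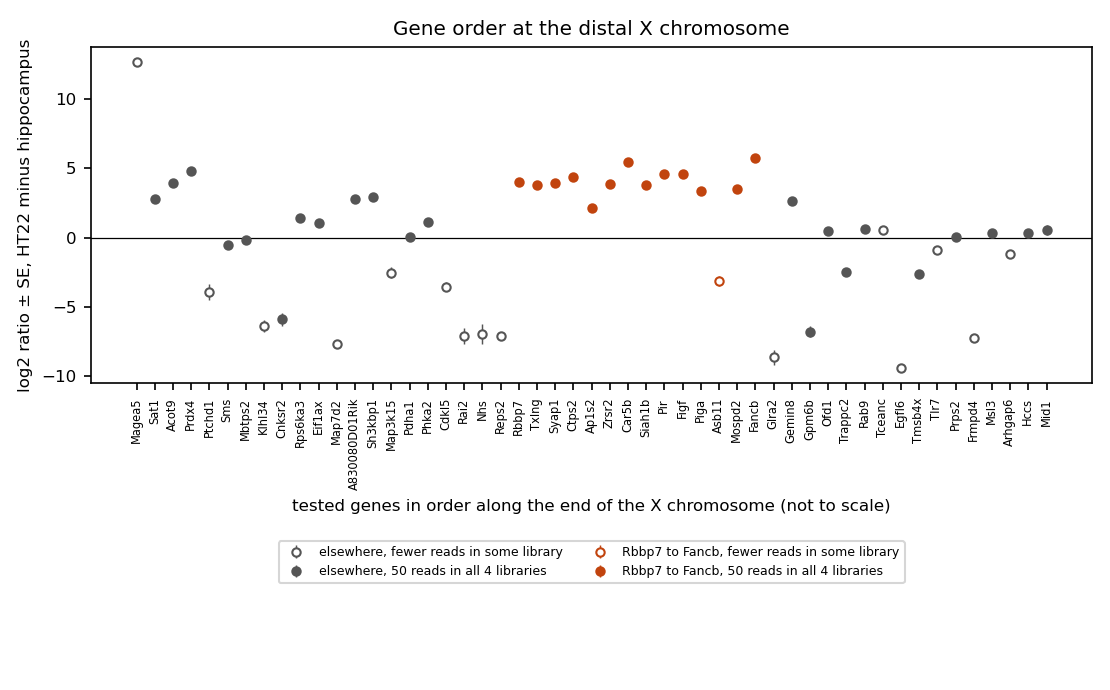
Log2 ratio of HT22 over hippocampus, with its standard error where both groups have reads, for the tested genes in their order along the distal X chromosome. Red marks Rbbp7 to Fancb and open circles genes under 50 reads in some library. The 13 filled red points lie between 2.13 and 5.77, some filled grey points to their left as high (Prdx4 at 4.77), and the filled grey points to their right between -6.79 (Gpm6b) and 2.62 (Gemin8).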

How the data were processed

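RNA was measured in 4 poly(A)-selected libraries, 2 of hippocampus and 2 of HT22. For the deposited counts, Trim Galore trimmed the reads, TopHat2 placed them on mm10 and HTSeq counted them per gene, per the series' design text and the submitters' processing notes. The deposited tables also hold RPKM values per coding length, and log2 fold changes with p-values and FDR that the authors made with edgeR within each pair of libraries; none of these was used here. The 2 tables were joined on gene ID.

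The counts, 13192007 to 31175015 gene reads a library, were scaled by total gene reads. Genes with at least 50 reads in at least 2 libraries were fitted with the quasi-likelihood test of edgeR 4.0.16 in R 4.3.3, with Benjamini-Hochberg adjustment over all of them. No covariate was used, and 2 residual degrees of freedom remained. Exact intervals came from scipy 1.17.1. The fit was tested on simulated data. Named genes were the 12 highest and 12 lowest called genes with at least 100 CPM, up to 4 highest, 4 lowest and 3 nearest to 0 of each list, the pairs and the markers, plus members added with their values seen. Members and lists were chosen with earlier results of these data known. Promoters came from the RefSeq table for GRCm38.p6, first start per gene, matched by symbol. Alternatives were other scalings (TMM, DESeq2 1.42.0 size factors), filters, prior count, choline supply as a term, the DESeq2 test, limma 3.58.1 voom, and each library left out. Some genes are not reported here.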

Additional observations from a re-analysis of the deposited data

How the results depend on the processing

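The 5 counts stayed within 1.5 times their value in every alternative run: genes higher ranged from 3646 to 4637, lower from 3803 to 5729, at least 16-fold higher from 633 to 1066, at least 16-fold lower from 2174 to 3555 and within 2-fold from 4560 to 5573. With each library left out in turn, they ranged from 4036 to 4096, 4641 to 4802, 734 to 770, 2772 to 2875 and 4864 to 4903. No named gene that was called changed direction. Of the called genes, 53.6% were lower, against 56.0% with TMM and 57.3% with DESeq2 size factors. Of 7607 values for 589 named genes under the alternatives, 45 (18 genes) lost a call and 33 (11 genes) gained one. Of 594 list medians 468 moved by less than the spread between libraries, 125 by more, and 1 changed sign: the median log2 ratio of germline and pluripotency genes was -5.46, and 17.07 with at least 200 reads in 2 libraries, where Rhox5 is the 1 gene left of 3. No paired analysis was possible because the library numbers follow accession order; choline supply as a term is among the alternatives. Depth limits the lowest values: a gene at 0 in both cultures is bounded by 3 reads over the pair.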

Other observations

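Of 20 tested clock genes 12 were lower, 1 was higher and 7 were not called, and 6 passed through hippocampus alone. Over all tested genes 34.5% were lower and 29.8% higher. Npas2, a partner of the clock in the forebrain, was 61.9-fold lower, while Clock was not called at 53.1 and 71.1 CPM in hippocampus and 73.4 and 91.5 CPM in HT22. Of 23 immediate early genes 8 were lower and 8 higher, near the shares over all tested genes. Among the 23, 5 passed through hippocampus alone and 2 through HT22 alone. Arc, which neurons switch on with activity, was 223-fold lower, and Egr4 had 685 and 626 reads in hippocampus against 2 and 0. Maff and Fosl1, which respond to growth factors and stress, were 47.1-fold and 21-fold higher.

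Imprinted genes were lower for 20 of 27 tested, against 34.5% of all tested genes, with 13 passing the read filter through hippocampus alone. Peg10 had 782 and 872 reads in hippocampus and none in HT22 (at least 283-fold lower), and Grb10 was 5.25-fold higher. Axon guidance genes were lower for 23 of 39 and higher for 8, 17 of the 39 passing through hippocampus alone, with Slit1 407-fold lower and the receptor Epha2 27.4-fold higher. Of their hippocampal mean, the Y-linked genes stood at 0.386% and 1.07% (Uty), 1.08% and 0.836% (Ddx3y), 0.419% and 1.31% (Eif2s3y) and 0.552% and 2.3% (Kdm5d) in the 5 and 70 µM cultures. They are themselves among the 2822 genes at least 16-fold lower in HT22, and all 4 passed the filter through hippocampus alone. They lie between the quartiles of that class, 0.0791% and 1.26% at 5 µM and 0.413% and 2.47% at 70 µM. A place within their own class is favoured by its definition, and the source of these reads was not tested.

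On chromosome 4, Mtap, an enzyme of methionine salvage, was at 16.3 and 16.2 CPM in hippocampus and 533 and 488 CPM in HT22 (31.4-fold higher). Its neighbours Cdkn2a and Cdkn2b, cell cycle inhibitors, had no read in either culture. In hippocampus Cdkn2a had 5 and 2 reads, and Cdkn2b had 28 and 23. Both neighbours were under the read filter and were looked at after their values were seen.

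Of 22 tested p53 targets 11 were higher and 2 lower, where 29.8% of all tested genes were higher and 34.5% lower. Gtse1 was 219-fold higher, and Perp had 319 and 240 reads in hippocampus against 0 and 2. Of 22 muscle genes 13 were not tested, and 5 of the 9 tested passed through hippocampus alone. Of the 9 tested muscle genes 3 were higher, a share near the 29.8% over all tested genes, and 4 were lower. Of the higher ones, Ttn lost its call with DESeq2 size factors (log2 ratio 1.07), and without the F1m-CON or the 70 µM library (0.80 and 0.85). Des lost it without the F1m-CON library (adjusted p 0.0628). Of 20 germline and pluripotency genes 17 were not tested. Among the 3 tested, Rhox5 was higher while Dazl and Ddx4 were lower. Of the 3, 2 passed through hippocampus alone and 1 through HT22 alone, which set their directions.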
